A study of Mus musculus with 12 samples.

Results

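Cytoplasmic ribosomal proteins are the protein subunits of the ribosome that translates nuclear-encoded mRNAs, and their genes were described here in C2C12 cells, a mouse myoblast line that forms myotubes when serum is withdrawn. Genes were taken by annotation and name: protein-coding genes called Rpl or Rps followed by a number, the stalk genes Rplp0, Rplp1 and Rplp2, and Rpsa, without the S6 kinases and without names that mark a pseudogene copy. This rule took 81 of the 10289 genes with a row in any of 3 deposited tables. Of these, 76 were core subunits (45 of the large and 31 of the small subunit), and 5 were not (the paralogs Rpl7l1, Rpl22l1, Rpl36al and Rps27l, and Rps19bp1, which encodes a binding partner of Rps19). The reference annotation held 86 genes that the rule takes. Rpl24 was the only core gene among the 5 without a row. The others were Rpl3l, the muscle paralog of Rpl3, and Rpl10l, Rpl39l and Rps27rt.

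RNA-seq covered 4 groups with 2 libraries each, 8 in all. All came from stable lines made with a lentiviral vector with a CMV promoter and selected in puromycin. GFP-D0 and GFP-D4 were the GFP control line in growth medium (GM) and after 4 days in differentiation medium with low horse serum (D4). M3-D0 and M14-D0 overexpressed mouse METTL3 or METTL14, the subunits of the enzyme complex that writes the m6A mark on RNA. Titles put the M14-D0 libraries at D0, whereas their time point field says D4, and the titles were followed. Nothing in the labels says that the libraries of a group came from separate cultures. A further 4 libraries (MeRIP-seq, in which m6A-bearing RNA is immunoprecipitated) were not analysed here.

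Each table belongs to 1 comparison: D4 against GM in GFP cells, METTL3 against GFP in GM, and METTL14 against GFP in GM. The same GFP libraries in GM serve in all 3, so the tables are not independent of each other. A gene has a row where the authors kept it at a false discovery rate (FDR) of at most 0.05, in either direction. The value used for each gene was the mean normalized count, the authors' average over libraries of reads assigned to the gene after scaling for depth. Tables that share a gene gave it an equal value (largest relative difference 4.77e-10), so it is a single level over a common set of libraries and does not separate GM from D4. Which libraries were averaged, and whether reads were counted by strand, is not given in the sources used here, so reads of overlapping antisense genes may be included. The tables carry no value per library, no replicate spread and no library depth. No value below therefore has an SD, an SE or an n, no test was possible, and orders of genes that lie close together were not shown to exceed replicate error. The fold changes and p-values in the tables are the authors' own comparisons and were not used, so a row is reported without a direction or a size. RNA was taken from whole cultures, where fewer cells of a type and less RNA per cell cannot be told apart.

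Ribosomal proteins are made in near equal numbers, since each ribosome carries 1 copy of nearly every one of them, and their mRNAs are among the most abundant of dividing cells. Most of these mRNAs begin with a C followed by a run of pyrimidines, the 5′ terminal oligopyrimidine (TOP) motif. Through this motif LARP1, which binds the capped end, and the growth kinase mTOR adjust their translation together when nutrients or growth factors change. Muscle differentiation starts with serum withdrawal and exit from the cell cycle.

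The start of the transcript was shown for the genes that the results below turn on: the 3 genes with a row in the METTL3 table (Rpl38, Rps26 and Rps28), genes among the 5 highest (Rpl4, Rps15) or 5 lowest (Rps10, Rpl36al, Rps15a and the paralog Rpl22l1) per kb of exon, the gene with the largest share of its transcript matched elsewhere in the genome (Rps27), the best known phosphoprotein of the small subunit (Rps6) and the member that is no ribosomal subunit (Rps19bp1). Each line gives 30 bases from RefSeq on GRCm38.p6, the last 15 before the annotated start and the first 15 of the first exon, 5′ to 3′ on the strand of the gene. Capitals mark the longest pyrimidine tract found, a C and at least 4 pyrimidines after it whose C lies within 10 bases of the start. Sequences without capitals hold no such tract.
Rpl38, chr11:114668565-114668594, plus strand: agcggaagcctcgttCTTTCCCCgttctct
Rps26, chr10:128626492-128626521, minus strand: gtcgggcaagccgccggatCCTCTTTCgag
Rps28, chr17:33824548-33824577, minus strand: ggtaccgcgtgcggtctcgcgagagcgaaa
Rps15a, chr7:118116133-118116162, minus strand: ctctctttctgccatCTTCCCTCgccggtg
Rps6, chr4:86857353-86857382, minus strand: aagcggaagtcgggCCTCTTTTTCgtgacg
Rps27, chr3:90213634-90213663, minus strand: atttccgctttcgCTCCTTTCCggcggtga
Rps10, chr17:27635230-27635259, minus strand: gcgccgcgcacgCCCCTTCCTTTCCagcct
Rpl22l1, chr3:28805493-28805522, plus strand: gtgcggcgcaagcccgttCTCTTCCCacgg
Rpl36al, chr12:69184053-69184082, minus strand: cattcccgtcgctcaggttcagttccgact
Rpl4, chr9:64173372-64173401, plus strand: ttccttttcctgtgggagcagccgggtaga
Rps15, chr10:80292416-80292445, plus strand: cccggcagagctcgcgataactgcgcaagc
Rps19bp1, chr15:80264292-80264321, minus strand: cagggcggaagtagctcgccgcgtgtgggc

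In Rpl38 and Rps15a the C of the tract was the annotated first base itself, counted as position 1. In Rps6 the tract began at position -1, the base before the start, in Rps27 at position -2 and in Rps10 at position -3. In Rps26 it began at position 5 and in Rpl22l1 at position 4, inside the first exon. Rps28, Rpl36al, Rpl4, Rps15 and Rps19bp1 had none within reach.

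The first question was whether differentiation touched these genes at all. A row in the D4 table was found for 81 of the 86 annotated ribosomal protein genes (94.2%), beside 40% of all annotated protein-coding genes (8817 of 22028). Of the core genes 76 of 77 were listed (98.7%). Listed genes included the stalk genes Rplp0, Rplp1 and Rplp2, the exit tunnel genes Rpl4 and Rpl39, the genes around the mRNA exit Rps26 and Rps28, and Rps27a, which is translated as a fusion to ubiquitin. Subunits whose names the rule misses were listed as well, such as Fau, translated as a fusion to a ubiquitin-like protein, and the scaffold protein Rack1. Background shares depend on which genes are counted. Many annotated genes are not expressed in muscle cells, and the tables do not hold the expressed genes that missed the limit. Among the 9266 protein-coding genes with a row in any table, 95.2% were in the D4 table, and among the 7282 of them whose mean normalized count reached that of the lowest core gene (137), 96.0% were. Every ribosomal protein gene with a row was in the D4 table. The D4 table itself supplied 8817 of the 9266 genes, so almost any set of genes with a row lies near these shares. They cannot show whether ribosomal protein genes were listed more often than other expressed genes.

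The second question was whether overexpression of an m6A writer touched these genes in growing cells. The METTL3 table listed 3 of the 86 ribosomal protein genes (3.49%), beside 7.78% of all annotated protein-coding genes (1714 of 22028). They were Rpl38, a large subunit protein whose loss causes skeletal patterning defects in mice, and Rps26 and Rps28, small subunit proteins that lie at the mRNA exit. The METTL14 table listed 0 of the 86, beside 4.90% of all annotated protein-coding genes (1079 of 22028). Against the 9266 protein-coding genes with a row in any table, the background shares were 18.5% for METTL3 and 11.6% for METTL14, and against the 7282 at or above the lowest core level they were 19.4% and 12.0%. The like base for these is the 81 ribosomal protein genes with a row in any table, of which 3 were listed for METTL3 and 0 for METTL14. In each case a smaller share of ribosomal protein genes than of the background had a row, which was not tested. The absence of a row says only that a gene missed the authors' limit with 2 libraries per group, not that its level was the same. The 3 listed genes were also in the D4 table.

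**Figure D1:**
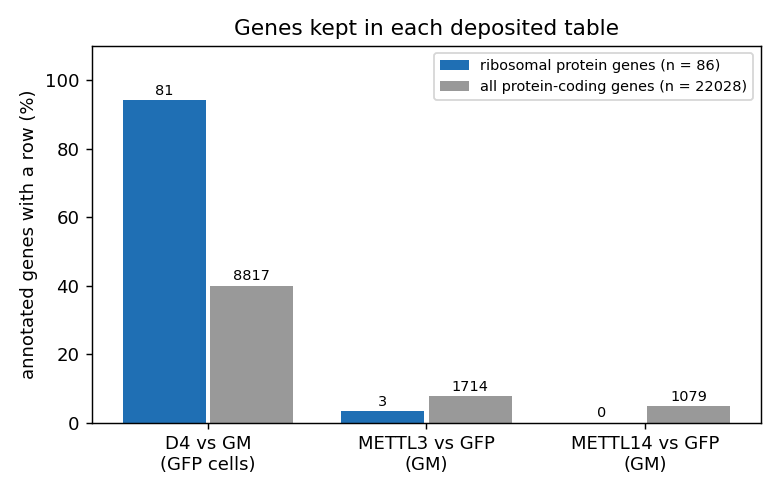
Share of annotated genes with a row in each deposited table (vertical axis, percent), for the 86 ribosomal protein genes (blue) and for all 22028 annotated protein-coding genes (grey), with the number of listed genes above each bar. Ribosomal protein genes stood above this background in the D4 table (94.2% and 40%). They stood below it in the METTL3 (3.49% and 7.78%) and METTL14 (0 and 4.90%) tables. The background includes genes not expressed in muscle cells. Of protein-coding genes with a row in any table, a base drawn mostly from the D4 table, 95.2% were listed for D4. So were all 81 ribosomal protein genes with a row.

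The overexpressed genes had rows where the labels place them. Mettl3 was listed for METTL3 and not for METTL14, and Mettl14 for METTL14 and not for METTL3 (Mettl14 was also listed for D4). Markers of the culture were listed widely. Of 5 myoblast genes (Myod1, Myf5, Des, Cdh15, Pax7) 4 had a row for D4, 5 for METTL3 and 4 for METTL14. Of 5 myotube genes (Myog, Myh3, Acta1, Ckm, Tnnt3) 5 had a row for D4, 1 for METTL3 and 2 for METTL14. All 3 cycling genes (Mki67, Top2a, Cdk1) had a row for D4 and 0 for either writer. Of 5 genes that mark other cell types (Ptprc, Pecam1, Adipoq, Epcam, Tubb3) only Tubb3 was listed, in all 3 tables. Of all protein-coding genes with a row in any table, 95.2% were listed for D4, 18.5% for METTL3 and 11.6% for METTL14. Ribosomal protein genes and cycling genes were both listed for D4, but so were most genes with a row, so this does not link them. The part of cycling cells in the ribosomal listing was not tested.

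Ribosomal protein genes had high levels for the genes of these tables. Their median mean normalized count was 2687, with quartiles of 1742 and 4250, against a median of 458 over all 10289 listed genes. Per kb of merged exons, the scale on which genes of unequal length can be compared, their median was 1553 (quartiles 887 and 2379) against 99.6 for all listed genes. The median ribosomal protein gene stood at the 97.0th percentile of listed genes per kb of merged exons. On that scale 69 of the 81 were at or above percentile 90 and 79 were at or above the median. The 2 below it were Rps10 and Rpl36al. The 81 genes made up 0.787% of the listed genes and 2.11% of their summed mean normalized count. The percentiles rank genes among those with a row, not among all expressed genes.

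By mean normalized count, not scaled by length, Rpl4, which lines the exit tunnel of the large subunit, was highest at 14290. Next were Rpl8, a protein close to the peptidyl transferase centre, at 12718, and Rplp0, the base of the stalk that recruits elongation factors, at 12558. Rps2, near the mRNA entry of the small subunit, had 9152, Rps15 of the small subunit head had 7286, Rps26 had 6928, Rpl7a of the large subunit had 6675 and Rpl41, the smallest ribosomal protein, had 6089. The 10 highest genes held 31.2% of the summed count of the 81. At the low end stood Rpl36al at 94.0, Rps10 at 137, Rpl22l1 at 313 and Rps19bp1 at 380. Rpl29, Rpl13a, Rps29 and Rpl39 had between 670 and 746. Of the 8 lowest, 3 were not core subunits, while the 8 highest were all core.

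The order was different per unit length. Per kb of merged exons Rps15 was highest at 11566 (630 bp of exon), followed by Rpl8 at 9359, Rplp1 at 8291, Rplp0 at 7569 and Rpl4 at 7120. The lowest on this scale were Rps10 at 59.3, Rpl36al at 69.5, Rpl22l1 at 157, Rps15a at 263 and Rpl13a at 329. Merged exons include every annotated variant of a gene, however rare, so genes with many annotated variants are pushed down. Rps24, a small subunit gene known for alternative splicing, carried 6256 bp of merged exons for a coding sequence of 399 bp. It ranked 63rd of 81 per kb of merged exons and 7th per kb of coding sequence. Rps15a, with 6270 bp of merged exons for 390 bp of coding sequence, had 263 per kb of exon and 4234 per kb of coding sequence.

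Per kb of coding sequence the genes lay closer together. This scale divides the reads of the whole gene, untranslated parts included, by the coding length alone. Genes with long untranslated parts can therefore be pushed up. The 76 core genes had a median of 6032 per kb of coding sequence (quartiles 4749 and 8889), and 61 of them were within 2-fold of it, against 52 of 76 within 2-fold of the core median per kb of merged exons. Within 3-fold on the coding scale were 70 of 76. Above the rest stood Rpl41 at 44121 per kb of coding sequence, a value that rests on a coding sequence of only 138 bp, then Rps26 at 20081, Rps15 at 16750 and Rpl8 at 16496. Below stood Rps10 at 270, Rpl13a at 1142, Rpl29 at 1396 and Rpl26 at 1728. Rps10, whose human counterpart is mutated in Diamond-Blackfan anaemia, was therefore the lowest core gene on all 3 scales. Its gene lies on chromosome 17, from 27630418 to 27636669 (GRCm38), on the minus strand.

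**Figure D2:**
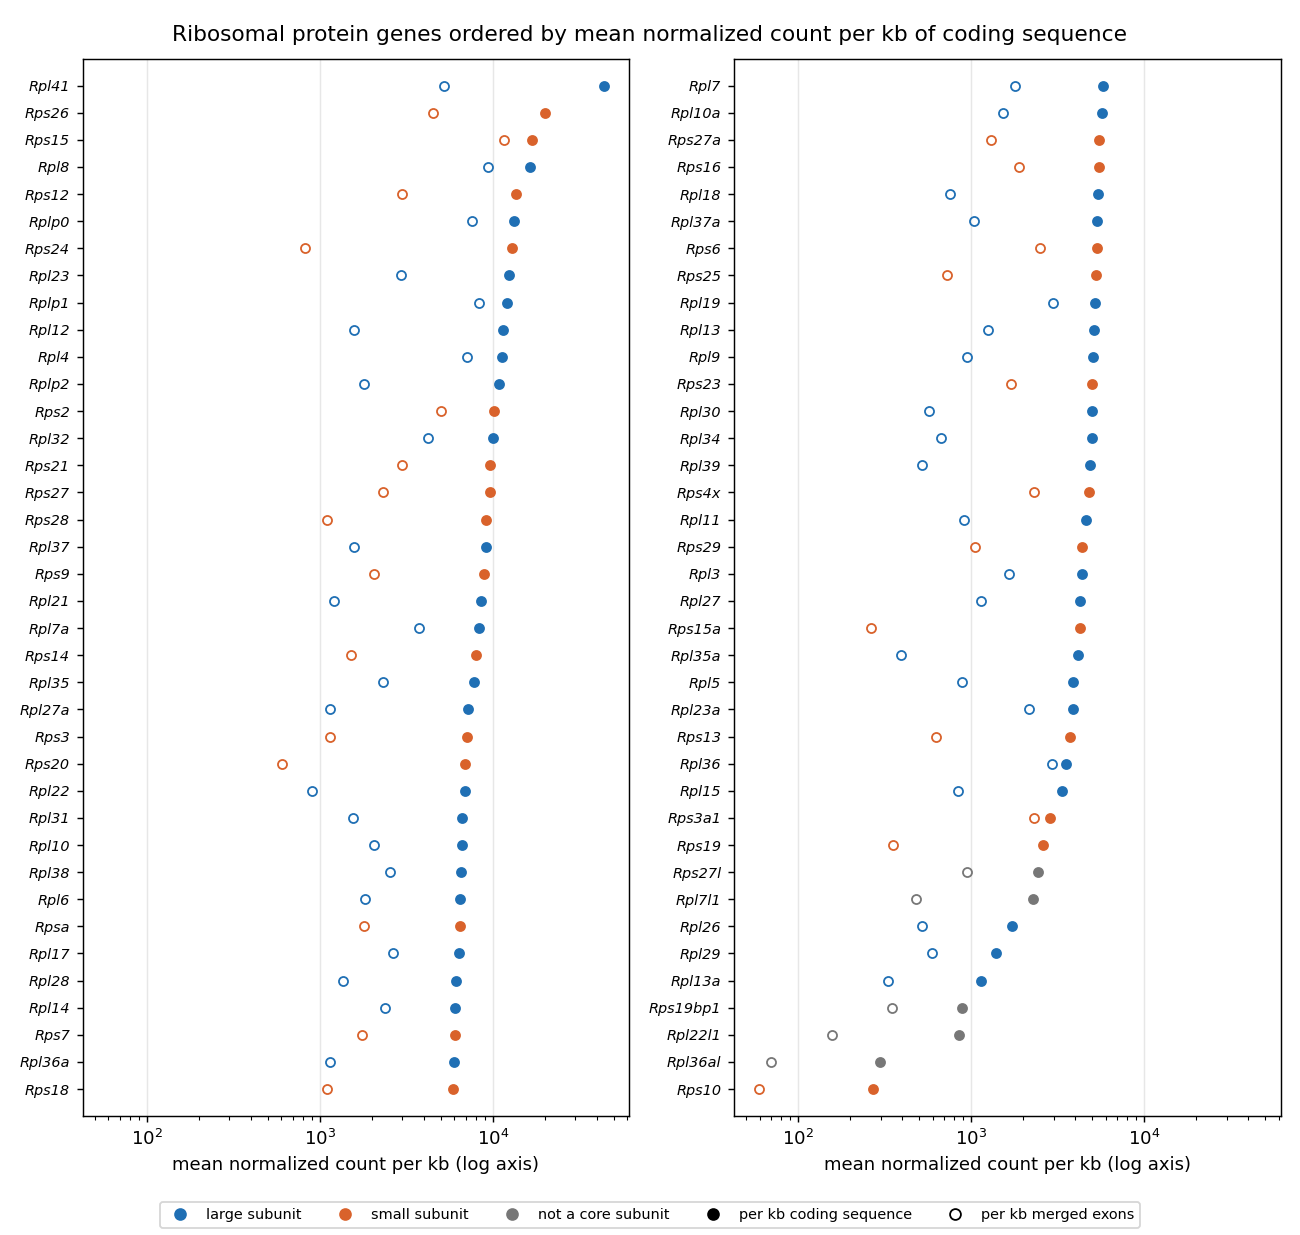
Mean normalized count per kb of coding sequence (filled circles) and per kb of merged exons (open circles) on a log axis, for 76 of the 81 ribosomal protein genes (5 are not shown) in 2 columns from the highest to the lowest on the coding scale, with large subunit genes in blue, small subunit genes in orange and members that are not core subunits in grey. The filled circles run from 44121 (Rpl41) to 270 (Rps10) and most core genes lie within 2-fold of the core median (61 of all 76), and the open circles scatter more widely.

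The subunits had similar levels. For core genes the median mean normalized count was 3047 in the large and 2583 in the small subunit. Per kb of merged exons the order turned, with 1582 in the large and 1742 in the small subunit, and per kb of coding sequence the medians were 6035 and 6029. The quartiles on the coding scale were 4878 and 8364 for the large subunit and 4585 and 9061 for the small, so the ranges overlapped almost throughout.

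Genes with particular roles were spread over this range, and those in this paragraph beyond the rule for named genes were picked for their role after values were seen. Per kb of coding sequence the stalk proteins stood at 13205 (Rplp0), 12097 (Rplp1) and 10803 (Rplp2), all in the upper quartile of core genes. Per kb of merged exons Rplp0 (7569) and Rplp1 (8291) were above the core upper quartile of 2509, and Rplp2 (1799) was under it. Rplp1 and Rplp2 form dimers on the stalk, and so more than 1 copy of each sits on a ribosome. Whether copy number bears on the mRNA level was not tested. Rpl5 and Rpl11, which with the smallest ribosomal RNA can bind the p53 regulator Mdm2, had 3903 and 4604 per kb of coding sequence, under the lower quartile of 4749. Rps6, the classic substrate of S6 kinase, had 5309, and Rpl10, one of the last proteins to join the large subunit, had 6619. Rps19, the gene most often mutated in Diamond-Blackfan anaemia, had 2616. The genes with a row in the METTL3 table were not alike in level: Rps26 had 20081 per kb of coding sequence, Rps28 had 9190 and Rpl38 had 6546, which ranked them 2nd, 17th and 32nd of 81.

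In all 4 pairs of a paralog and its core partner, the partner was higher. Per kb of coding sequence Rpl36a had 5992 and Rpl36al 296, a ratio of 20.3. Rpl22, an RNA-binding protein that is dispensable for most cells, had 6861 and Rpl22l1 856, a ratio of 8.02. The ratio was 3.94 for Rps27 (9636) over Rps27l (2447), a target of p53, and 2.55 for Rpl7 (5789) over Rpl7l1 (2266). Per kb of merged exons the ratios were 16.6, 5.75, 2.46 and 3.77 in the same order of pairs, so the partner was again higher in each pair. Outside the name rule, Fau had 2139 as its mean normalized count (5360 per kb of coding sequence) and Rack1 11727 (12331 per kb of coding sequence), within the range of the core genes.

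Ribosomal protein genes have left many processed copies in the genome, and reads from such shared stretches can be assigned to either place or dropped. How reads with several alignments were treated is not given in the sources used here. For each of the 81 genes a representative transcript was divided into overlapping windows of 50 bases, and the share of windows with an exact match elsewhere on the chromosomes was counted. The median share was 50.8%, from 0 to 99.7%, with 42 genes at or above 50% and 11 at or above 90%. Nearly the whole transcript was matched elsewhere in Rps27 (99.7%) and Rpl36 (98.5%), and no window in Rps19bp1. Of the genes in the METTL3 table, Rpl38 had 57.6%, Rps28 50.8% and Rps26 38.3%. Rps10, the lowest core gene, had 54.7%. With windows of 100 bases the median share fell to 38.8%.

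The relation of level to shared sequence differed in sign between scales. Across the 81 genes Spearman's rho was 0.197 per kb of merged exons and -0.184 per kb of coding sequence. For the mean normalized count, not scaled by length, it was -0.0353. These are descriptions across genes that share libraries, depth and length estimates. The 39 genes with less than 50% of windows shared had a median of 6861 per kb of coding sequence, and the 42 others had 5485. Per kb of merged exons the order was opposite, with 1148 and 1802. Low genes were found at both ends: Rpl36al (25.7% of windows shared) and Rpl13a (26.5%) with little shared sequence, and Rpl29 (86.0%) with much.

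**Figure D3:**
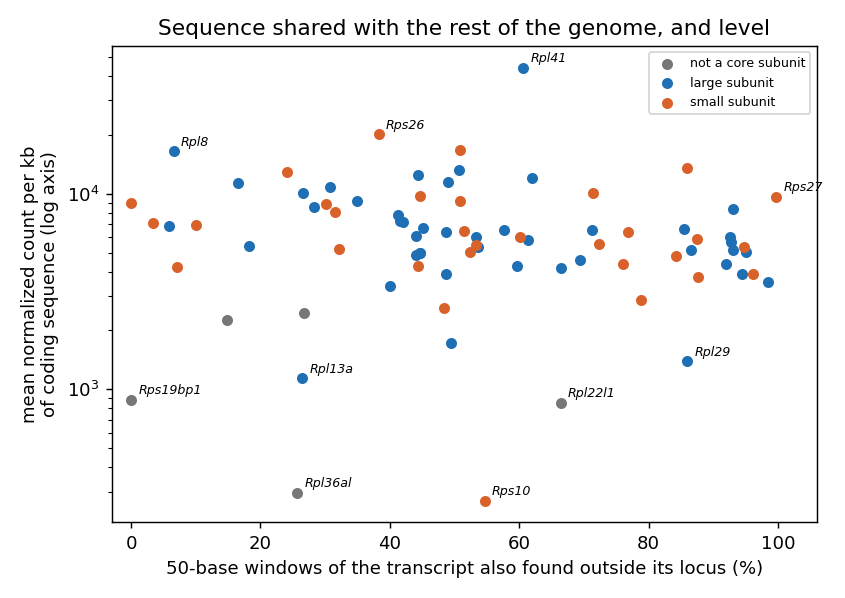
Mean normalized count per kb of coding sequence (vertical, log axis) against the share of 50-base windows of the transcript with an exact match elsewhere in the genome (horizontal, percent), 1 point per ribosomal protein gene, with large subunit genes in blue, small subunit genes in orange and members that are not core subunits in grey. Shares run from 0 (as in Rps19bp1) to 99.7% (Rps27), and genes of low level lie at small shares (Rpl36al, Rps19bp1) as well as large ones (Rpl29).

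Annotated copies were themselves counted. Of genes named as Rpl or Rps pseudogenes, 17 had a row in a table, 16 of them for D4, 0 for METTL3 and 1 for METTL14 (Rpl7-ps7). Their median mean normalized count was 8.49, and 13 of the 17 were under 100. The 4 above it were Rps26-ps1 at 1145, Rps7-ps3 at 420, Rpl3-ps1 at 308 and Rps15a-ps8 at 142. The parent genes had 6928 (Rps26), 3509 (Rps7), 5274 (Rpl3) and 1651 (Rps15a). Reads of a parent and its copy cannot be told apart where they share sequence, so these 8 values are uncertain.

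The TOP motif and promoter motifs were then counted. RefSeq start sequences were found for 61 of the 81 genes (72 promoters, since some genes have several starts), and each window ran from 250 bases before the start to 50 bases after it. Genes without an entry included Rpl29, Rps14, Rpl32, Rps20, Rpl3, Rpl7, Rps29, Rpl36, Rpl23a, Rps27a, Rpl30, Rplp1, Rpl17, Rpl8 and Rpl21. A pyrimidine tract within 10 bases of the start, as in the sequences printed above, was found in 36 of 61 (59.0%), against 34.4% of the 27025 genes of the promoter table and 36.9% of 6896 other protein-coding genes of the D4 table. Tracts that end before the annotated start were counted too, as in Rpl6, Rpl10a and Rpl19, so the measure is wider than the TOP motif. A C exactly at the annotated start with at least 4 pyrimidines after it was found in 13 of 61 (21.3%), against 3.01% and 3.06%. These include tracts that begin at the start, as in Rpl38 and Rps15a. They also include longer tracts that begin before the start and run through it, as in Rps6, Rps27 and Rps10. With a C and at least 6 pyrimidines within 10 bases the shares were 47.5%, 14.1% and 15.1%. The tract was found in 21 of 36 large subunit genes and 15 of 25 small subunit genes. An annotated start can be off by some bases, and reaching 25 bases to either side gave a tract to 83.6% of the genes, but also to 59.3% of all genes of the promoter table.

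Short motifs were sought on both strands of the whole window. The ETS core CCGGAA was in 34 of 61 ribosomal protein genes (55.7%), against 16.7% of all genes of the promoter table and 30.5% of the other protein-coding genes of the D4 table. The YY1 core AAGATGG was in 10 of 61 (16.4%), against 7.28% and 7.93%. The GC box GGGCGG was in 65.6%, well above the 38.2% of all genes but near the 68.4% of the D4 genes. The TATA box TATAAA was in 11.5%, against 15.7% and 9.45%, and the E-box CACGTG, a site of the growth regulator Myc, was in 9.84%, against 8.09% and 11.3%. For these 2 motifs the order depended on the window: starting 100 bases before the start, the TATA box was in 9.84% of the ribosomal protein genes, against 8.08% and 4.71%, and the E-box in 3.28%, against 5.00% and 7.06%. Matches were counted for each motif alone, whether or not they overlapped another motif, and a match is a match of letters, not a bound site. The D4 background was chosen after the data were seen.

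**Figure D4:**
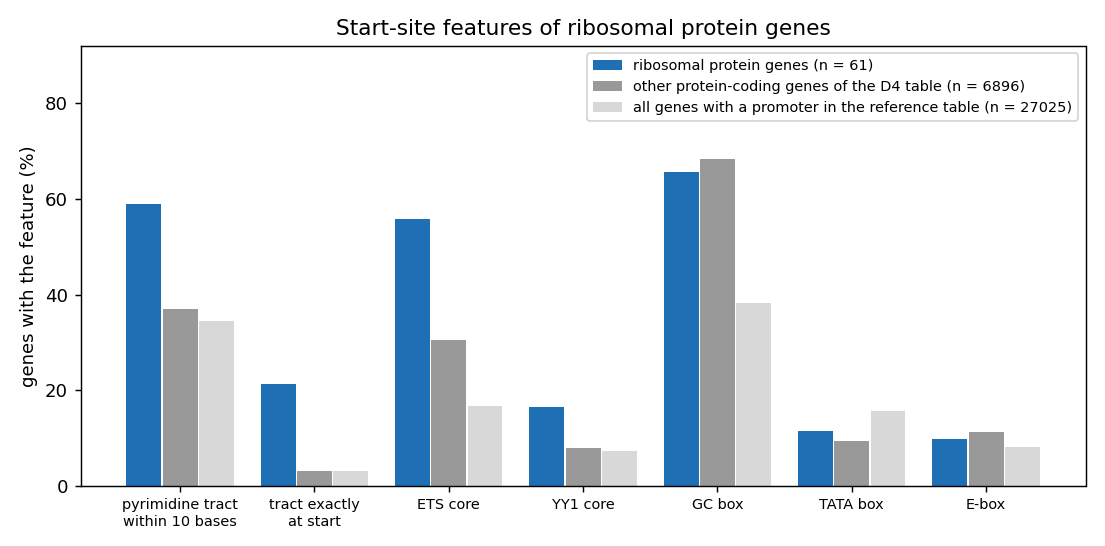
Share of genes (vertical axis, percent) with a pyrimidine tract within 10 bases of the annotated start, with a C of a tract exactly at the start, or with 1 of 5 short motifs in the promoter window, for 61 ribosomal protein genes (blue), 6896 other protein-coding genes of the D4 table (dark grey) and 27025 genes of the promoter table (light grey). Tracts with a C exactly at the start may begin before it. The ribosomal protein genes stood above both backgrounds for the tract (59.0%) and the ETS core (55.7%), and close to the D4 genes for the GC box (65.6% and 68.4%).

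Level and tract were set side by side. The 36 genes with a tract had a median of 6032 per kb of coding sequence, from 270 (Rps10) to 20081 (Rps26), and the 25 without one had 5242, from 296 (Rpl36al) to 44121 (Rpl41). Per kb of merged exons the medians were 1537 and 1148. The ranges overlapped on both scales. Of the genes in the METTL3 table, Rpl38 and Rps26 carried a tract and Rps28 did not.

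The other genes of translation came from fixed lists. Of 14 mRNAs that carry a TOP motif without encoding a ribosomal protein, 14 were in the D4 table, 1 in the METTL3 table and 0 in the METTL14 table. Among all protein-coding genes with a row in any table, the shares were 95.2%, 18.5% and 11.6%. That base holds only genes with a row, most of them from the D4 table, whereas the lists were not chosen by row. The D4 counts in this paragraph were therefore not shown to differ from those of other expressed genes. The gene listed for METTL3 was Eef2, the factor that moves the ribosome along the mRNA, with a mean normalized count of 52295 (20317 per kb of coding sequence). Eef1a1, which delivers aminoacyl-tRNA, had 28048 per kb of coding sequence and Tpt1, a growth-associated protein, had 26330, both above every ribosomal protein gene but Rpl41. The muscle elongation factor Eef1a2 had no row. Of 20 genes of ribosome biogenesis 19 were listed for D4, 2 for METTL3 (Bop1, a processing factor of large subunit rRNA, and Eif6, which keeps the subunits apart) and 1 for METTL14 (Eif6). Npm1 and Ncl, abundant proteins of the nucleolus, had 12830 and 8511 per kb of coding sequence. Of 5 genes of growth control, 4 (Mtor, Rptor, Larp1, Myc) were listed for D4 and 0 for either writer. Larp1, which binds TOP mRNAs, had a mean normalized count of 5050 and Myc, a transcription factor that drives ribosome production, had 1457.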

How the data were processed

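RNA from C2C12 cells was sequenced by the study in 8 RNA-seq libraries (4 groups of 2, grouped by the titles of the labels). The authors aligned clean reads to GRCm38 with hisat2, counted them with featureCounts on Ensembl annotation version 102 and normalized and compared them with DESeq2. Program versions are not given in the sources used here. The deposited mean normalized count is a signal, the authors' average of size-factor-scaled reads, with 1 value per gene. Each table also holds their log2 fold change, its standard error, test statistic, p-value and adjusted p-value. These are the authors' own comparisons and were not used, so no direction, size or test is given. Depth per library is not in the tables, which limits the precision that can be stated. Unused columns of per-sample values numbered 0.

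Means were divided by length (kb of merged exons, or of the longest coding sequence) from GENCODE M21, which is on the same build but is another release than the authors' annotation (4 listed genes had no gene model there). Percentiles were taken among listed genes. Shared windows were counted on RefSeq GRCm38.p6 chromosomes, and promoters came from RefSeq. The search for shared windows and tracts was tested on simulated data. Genes were named by rule: the 8 highest and 8 lowest means, the 5 highest and 5 lowest per kb of merged exons, paralogs with partners, members in the METTL3 or METTL14 table, and listed genes of fixed lists. Others were named after their values were seen, and a few genes are counted but not reported here by name. The members and lists were chosen with earlier results of these data known. Alternatives were other lengths, minimum means, backgrounds, core genes alone, and other tract and motif windows. Python 3.11.15, pandas 2.3.3, NumPy 2.4.6, SciPy 1.17.1, numba 0.67.0 and matplotlib 3.10.9 were used.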

Additional observations from a re-analysis of the deposited data

How the results depend on the processing

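No paired analysis was possible because the tables hold 1 mean per gene and the results come from no test. For the same reason no library could be left out, and neither the normalization nor a filter on counts per library could be varied. Length from protein sequence was not run; annotated coding length was used instead, an alternative chosen after seeing the data. The median percentile of ribosomal protein genes (91.1 by mean normalized count) was 88.7 among genes with a mean of at least 100, 81.1 among genes of the METTL3 table, 97.0 per kb of merged exons, 97.6 per kb of the longest transcript and 97.4 per kb of coding sequence. Among protein-coding genes with a row in any table, and among those at or above the lowest core level, the share listed was 95.2% and 96.0% for D4, 18.5% and 19.4% for METTL3, and 11.6% and 12.0% for METTL14. Against the other genes of the D4 table, a background chosen after seeing the data, shares were 68.4% for the GC box, 30.5% for the ETS core, 7.93% for the YY1 core, 9.45% for the TATA box, 11.3% for the E-box and 36.9% for the tract. A window starting 100 bases before the start gave 50.8% of ribosomal protein genes a GC box (31.5% of all genes of the promoter table, 58.9% of the D4 genes) and 3.28% an E-box (5.00% and 7.06%), and moved the TATA box to the other side of all genes (9.84% and 8.08%). The E-box also changed sides against all genes. The tract share was 21.3% with a C of the tract exactly at the start, and 83.6% within 25 bases. The ratio of the large to the small subunit median was 1.20 by mean normalized count, 1.18 for core genes, 0.905 per kb of merged exons and 1.00 per kb of coding sequence, so its side depends on the length scale. The highest gene exceeded the lowest 152-fold by mean normalized count and 163-fold to 195-fold on the length scales.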

Other observations

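The 81 ribosomal protein genes were spread over most chromosomes. Chromosome 7 held 14 of them (17.3%), against 9.18% of annotated protein-coding genes, and chromosomes 19 and Y held 0. On the X chromosome lay 4: Rpl10, Rpl36a, Rpl39 and Rps4x. Among neighbours within 100 kb, Rps29 and Rpl36al lay 23544 bp apart on chromosome 12, and Rpl41 and Rps26 lay 75228 bp apart on chromosome 10.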
